A study of Mus musculus with 2 samples.

Results

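The genes described here code for the core and regulatory splicing factors whose symbols start with Hnrnp, Srsf, Sf3a, Sf3b or Snrp, leaving out Hnrnpl, Hnrnpll and symbols ending in -ps. The rule found 50 of the 25778 genes in the count table, made up of 18 Hnrnp, 11 Srsf, 9 Sf3 (3 Sf3a and 6 Sf3b) and 12 Snrp genes. All 50 were found by symbol in the mm10 gene annotation, on 18 chromosomes. The study deleted Ptbp1, a polypyrimidine tract binding protein that represses exons, in the developing mouse retina and asked which cells were then formed. Retinas of 30-day-old mice were profiled by droplet single-cell RNA-seq, with 1 library of 1 mouse per genotype. The Ptbp1-Ctrl library was labelled Chx10Cre. The Ptbp1-KO library was labelled Chx10-Cre;Ptbp1lox/lox, so that both carried the Cre transgene, which is active in retinal progenitors. Recombination of the lox allele by Cre removes the start of Ptbp1, its promoter and exon 1 included. With 1 library per genotype, no difference between genotypes could be tested against the spread between animals. Every interval given here is a 95% interval that covers counting error only.

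Pre-mRNA splicing is carried out by the spliceosome, which is assembled on each intron from small nuclear ribonucleoproteins (U snRNPs) and many other proteins. The Sm proteins, coded by several Snrp genes, form a ring on the U snRNAs, and the SF3A and SF3B proteins belong to the U2 snRNP, which recognises the branch point. SR proteins (Srsf genes) generally bind exons and favour their inclusion. The hnRNPs form a diverse group of RNA-binding proteins that often act against SR proteins and also serve in RNA transport and stability. PTBP1 is itself counted among the hnRNPs, under the older name hnRNP I, but it was not selected by the rule.

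The table held 16421 cells and 32758836 unique molecular identifiers (UMIs, counted molecules) for Ptbp1-Ctrl, and 14522 cells and 35328593 UMIs for Ptbp1-KO. UMIs were summed by library and by the cell type that the authors had assigned, and are given as CPM, the UMIs of a gene scaled to a total of 1000000 for that type and library. Müller glia (MG), amacrine cells (AC), bipolar cells (BC), cones and rods each had over 1000000 UMIs in either library. The retinal ganglion cells (RGC, 124 and 97 cells) and horizontal cells (HC, 17 and 7 cells) were too few for ratios between genotypes. The marker list of each of these 7 types was highest in the type of that name in both libraries. The rod markers nevertheless reached 18296 and 22482 CPM in the cells labelled RGC, against 28665 and 25583 CPM in rods, so values for RGC are given with that reserve. Endothelial markers were highest in MG, at 1522 and 1524 CPM, as were the pericyte, astrocyte and pigment epithelium lists. Microglial markers were highest in RGC, at 89.2 and 136 CPM. There, 4 of these 5 markers had 0 UMIs in Ptbp1-Ctrl and 2 had 0 in Ptbp1-KO. Red blood cell markers were at 0.10 CPM in BC of Ptbp1-Ctrl and 262 CPM in BC of Ptbp1-KO, beside 73.5 and 91.3 CPM in rods, and their part in differences between genotypes was not tested. Of Ptbp1 itself, 825 UMIs were counted in the control library and 14 in the Ptbp1-KO library. The methods of the study name female mice, but the Y-linked gene Uty had 6164 and 7085 UMIs and Xist 5 and 6 UMIs, so that neither library matched that description. The libraries shared 63 cell barcodes, and cells of Ptbp1-KO were deeper, with a median of 1740 UMIs per cell against 1442.

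The splicing factor genes as a whole differed little in level between genotypes. Their summed level was 7513 CPM (95% interval 7466 to 7560) in rods of Ptbp1-Ctrl and 7326 CPM (7282 to 7371) in rods of Ptbp1-KO. In cones the sums were 7943 and 7636 CPM, in BC 8036 and 7783 CPM, in AC 7960 and 7746 CPM, and in MG 7170 and 6949 CPM. The log2 ratio of Ptbp1-KO to Ptbp1-Ctrl of these sums thus lay between -0.06 (cones) and -0.04 (rods and AC), lower in all 5 types. A typical rod carried 8 UMIs of the 50 genes together in Ptbp1-Ctrl and 9 in Ptbp1-KO, and a typical Müller glial cell 24 and 29. Rods had the shallowest cells of the 5 types, with medians of 1088 and 1288 UMIs of all genes.

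Single genes were compared where their mean CPM over both libraries was at least 50 and they had at least 50 UMIs, and a difference of at least 1.3-fold was counted as a call. The minimum was passed by 41 of the 50 genes in rods, 43 in cones, 42 in BC, 41 in AC and 40 in MG. The same 40 passed in all 5 types, and 7 passed in none (Sf3a2, Sf3a3, Sf3b4, Snrpa, Snrpa1, Snrpb2 and Srsf12). In rods, 1 gene was called higher in Ptbp1-KO (2.83% of the 3855 genes compared there) and 1 lower (1.97% of all genes). In BC there was again 1 in each direction (1.70% and 1.48% of 4176 genes), as in AC (3.65% and 2.83% of 4522 genes) and in MG (4.35% and 4.71% of 4205 genes). In these 4 types the gene called higher was Hnrnpa0 and the gene called lower was Srsf2. Cones, the type with the fewest UMIs, had 2 genes higher (Sf3b3 and Snrpn; background 5.43% of 3997 genes) and 2 lower (Srsf2 and Snrpb; background 5.45%). The calls depended on the scaling and on which molecules were kept. With TMM scaling 0 genes were higher and 3 lower in rods (1.71% and 5.19% of all genes), and 0 and 4 in cones (4.23% and 7.13%). In cells thinned to 1000 UMIs, 8 genes were past 1.3-fold in either direction in cones (26.7% of all genes) and 6 in AC (17.2%). With an estimate of free RNA subtracted there were 12 in cones (30.3%) and 5 in AC (14.6%).

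**Figure D1:**
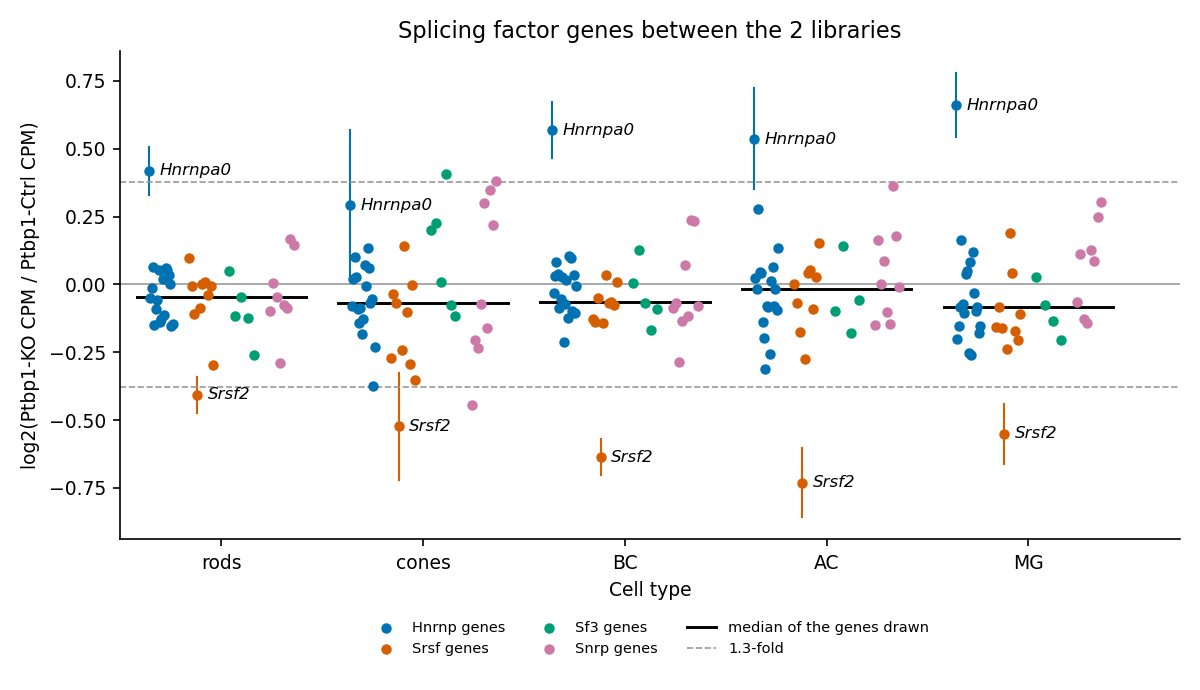
Each point is the log2 ratio of CPM in Ptbp1-KO to Ptbp1-Ctrl of 1 splicing factor gene in 1 cell type, coloured by family; bars on Srsf2 and Hnrnpa0 are 95% counting intervals, black lines are medians over the genes drawn, and dashed lines mark 1.3-fold. Most points lie within 1.3-fold, with Srsf2 lowest in all 5 types, from -0.41 in rods to -0.73 in AC, and Hnrnpa0 highest in rods, BC, AC and MG.

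The medians over the genes that passed were slightly below those of all genes. The median log2 ratio was -0.05 in rods, -0.07 in cones, -0.07 in BC, -0.02 in AC and -0.08 in MG. Over all genes compared, the medians were between -0.02 (cones and MG) and 0.00 (rods). Of the 41 genes in rods, 14 were above 0, against 51.1% of all genes there, and 27 below, against 48.9%. In cones the number below 0 was 27 of 43 (54.5% of all genes), in BC 26 of 42 (51.5%), in AC 22 of 41 (52.6%) and in MG 26 of 40 (54.9%). Of the 40 genes that passed throughout, 12 were lower in Ptbp1-KO in all 5 types, against 17.7% of the 2583 genes of the table that passed throughout, and 5 were higher in all 5 types, against 9.29%. The 5 were Hnrnpa0, Hnrnpk, Snrpf, Snrpg and Srsf4. The ratios of the 5 types share their libraries, so they are not independent of each other. Snrpf and Snrpg stayed higher in all 5 types under 6 other ways of scaling or selecting the cells and molecules, Hnrnpa0 under 4 of them, and Hnrnpk and Srsf4 under 1 each. Where the libraries were scaled by DESeq2 size factors in place of total UMIs, the median of all genes in rods moved from 0.00 to -0.11, and the members' median with it to -0.16. The split in rods moved with the scaling: 3 of the 41 genes were above 0 with DESeq2 size factors (22.9% of all genes) and 4 with TMM (26.6%).

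Srsf2 codes for SC35, an SR protein that binds exonic enhancers and also acts in transcription elongation. It lies on the minus strand of chromosome 11 of mm10 (chr11:116849901-116853094). Its level in rods was 311 CPM (302 to 321) in Ptbp1-Ctrl and 235 CPM (227 to 243) in Ptbp1-KO. The log2 ratio was -0.41 (-0.47 to -0.34). In cones it was 338 and 235 CPM (log2 ratio -0.52, -0.72 to -0.33). In BC it was 472 and 304 CPM (-0.64, -0.70 to -0.57), and in AC 480 and 290 CPM (-0.73, -0.86 to -0.60). In MG it was 309 and 211 CPM (-0.55, -0.66 to -0.44). Srsf2 was therefore lower in Ptbp1-KO in each of the 5 types, with no overlap of the counting intervals of the 2 libraries. In RGC, with few UMIs, the levels were 235 and 196 CPM and the log2 ratio was -0.26 (-0.92 to 0.39).

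Srsf2 and Hnrnpa0 were followed by cluster, by share of cells and by neighbouring genes, a choice made after these values were seen. The authors' annotation divided the cells into clusters, of which 21 had at least 50 UMIs of Srsf2. In all 21 the level was lower in Ptbp1-KO, by a log2 ratio of between -0.78 and -0.18 and a median of -0.57, and in 20 of them the interval lay below 0. The exception was an MG cluster of 381 cells (297 and 262 CPM, -0.64 to 0.27). In the largest MG cluster, of 2380 cells, the levels were 299 and 205 CPM. The clusters share their libraries, so their ratios, here and for Hnrnpa0 below, are not independent of each other. After every cell had been thinned to 1000 UMIs, 27.4% (26.3 to 28.6) of Ptbp1-Ctrl rods had at least 1 UMI of Srsf2, against 21.4% (20.4 to 22.5) of Ptbp1-KO rods. Among thinned BC the shares were 37.5% and 25.4%, and among thinned MG 28.0% and 17.8%. Without thinning they were 31.4% and 28.2% in rods, 71.2% and 64.5% in BC, and 60.8% and 54.2% in MG. The thinning left out 4155 and 3126 rods with fewer UMIs.

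Hnrnpa0 codes for an hnRNP of the A/B type, which binds AU-rich RNA and is known as a target of stress kinases. It lies on the minus strand of chromosome 13 (chr13:58125879-58128556). Its level was 131 CPM (125 to 137) in rods of Ptbp1-Ctrl and 175 CPM (168 to 182) in those of Ptbp1-KO. The log2 ratio was 0.42 (0.33 to 0.51). In BC it was 129 and 192 CPM (0.57, 0.46 to 0.67), in AC 165 and 238 CPM (0.54, 0.35 to 0.72), and in MG 172 and 272 CPM (0.66, 0.54 to 0.78). In cones the levels were 127 and 155 CPM, a log2 ratio of 0.29 (0.02 to 0.57) that did not reach 1.3-fold. The cone ratio was below 0 in 2 of 7 ways of scaling or selecting the cells, at the lowest -0.11 with an estimate of free RNA subtracted. In rods the ratio was 0.31 with DESeq2 size factors, under 1.3-fold. None of the 50 genes was called higher in rods with TMM, DESeq2 or thinning (1.71%, 1.53% and 5.01% of all genes). In RGC the levels were 150 and 191 CPM (0.34, -0.39 to 1.08).

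Of 20 clusters with at least 50 UMIs of Hnrnpa0, all 20 were higher in Ptbp1-KO, by a log2 ratio of 0.06 to 0.85, and in 17 the interval lay above 0. The thinned share of cells with a UMI of Hnrnpa0 was 14.6% and 21.7% in MG and 11.3% and 15.8% in BC. In thinned cones it was 14.6% (11.8 to 17.7) and 13.2% (10.1 to 16.8), in the other direction from the cone CPM. The unthinned shares were 42.3% and 63.9% in MG, 30.7% and 48.5% in BC and 29.0% and 35.3% in cones. Among all genes compared, ranked from the lower end, Srsf2 stood at place 63 of 3855 in rods and 15 of 4522 in AC. Hnrnpa0, ranked from the upper end, stood at place 88 in rods, 17 of 4176 in BC and 412 of 3997 in cones. Of the 2583 genes that passed throughout, 9 were called higher in at least 4 of the 5 types and 10 were called lower, so these genes were not alone in differing alike between the libraries across types.

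**Figure D2:**
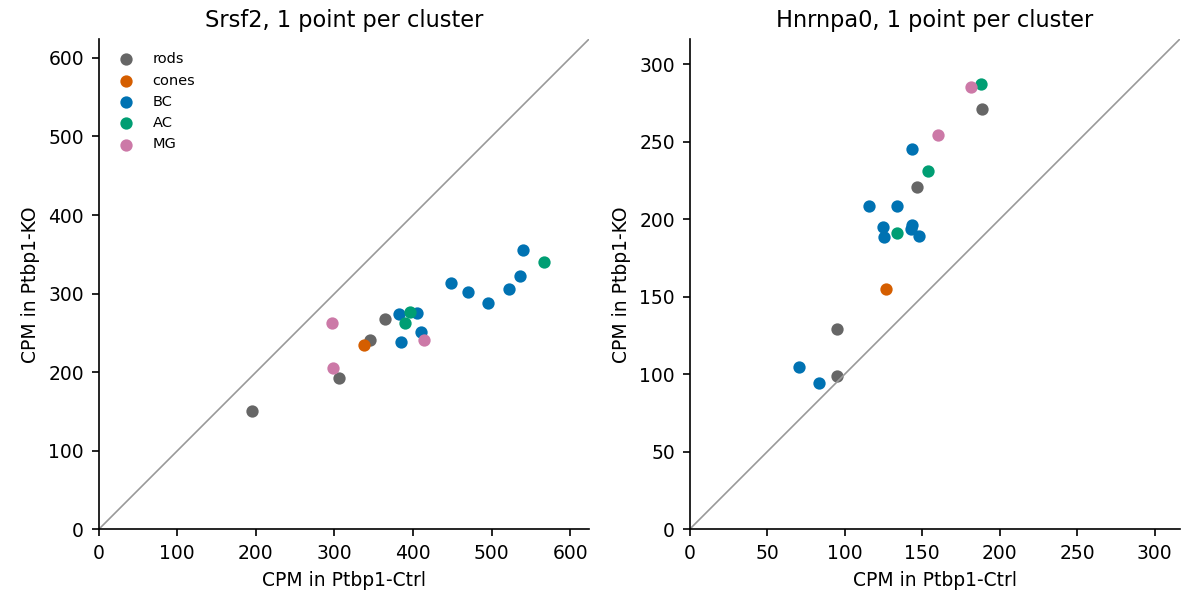
Each point is 1 cluster of the authors' annotation, placed by its CPM in Ptbp1-Ctrl (x axis) and in Ptbp1-KO (y axis) and coloured by the cell type most of its cells have; the line marks equal levels. All 21 points lie below the line for Srsf2 and all 20 above it for Hnrnpa0.

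The 250 bases before the annotated starts of both genes are shown because these were the genes with calls in most types. They were taken from RefSeq (GRCm38.p6) and cover chr11:116853095-116853344 and chr13:58128557-58128806, both read on the minus strand. Capitals mark each match, on either strand and overlaps included, to the GC box GGGCGG, to the box with the letters CCAAT, or to the TATA element, whose letters were TATAAA.
Srsf2: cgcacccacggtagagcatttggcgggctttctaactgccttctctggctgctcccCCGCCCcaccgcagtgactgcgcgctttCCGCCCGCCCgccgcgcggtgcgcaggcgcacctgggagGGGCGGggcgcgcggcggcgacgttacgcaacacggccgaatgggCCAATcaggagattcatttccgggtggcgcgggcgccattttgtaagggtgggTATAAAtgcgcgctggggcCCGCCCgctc
Hnrnpa0: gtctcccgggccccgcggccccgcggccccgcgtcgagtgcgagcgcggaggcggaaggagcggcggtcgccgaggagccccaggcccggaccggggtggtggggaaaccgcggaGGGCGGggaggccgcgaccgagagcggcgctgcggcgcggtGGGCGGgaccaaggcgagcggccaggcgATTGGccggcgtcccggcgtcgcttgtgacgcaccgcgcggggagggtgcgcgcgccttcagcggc
The Srsf2 stretch was 69.6% G and C and held 5 GC boxes, 1 CCAAT box and 1 TATA element. The Hnrnpa0 stretch was 81.2% G and C and held 2 GC boxes and 1 CCAAT box. Of 32851 RefSeq promoter windows of the same 250 bases, 32.7% held a GC box, 33.8% a CCAAT box and 12.4% a TATA element. These matches are descriptions of the letters and not binding sites.

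Srsf2 shares its locus with other genes, so its counts were read beside theirs. Mettl23, a methyltransferase gene on the opposite strand, spans Srsf2, and Mfsd11 starts within it on that strand. Whether reads were counted by strand is not given in the sources used here, so reads of overlapping genes may not have been told apart. Over the 5 types together, Srsf2 had 12032 and 9036 UMIs, a log2 ratio of -0.53 (-0.57 to -0.49). The mix of cell types differed between libraries, with 1956373 and 3857457 UMIs in AC, and its part in the pooled ratios given here was not tested. Mettl23 had 1952 and 1624 UMIs, a log2 ratio of -0.38 (-0.48 to -0.28), and Mfsd11 had 630 and 815 UMIs, a log2 ratio of 0.26 (0.11 to 0.41). The genes that overlap Srsf2 thus stood on both sides of 0. Of 15 genes within 500 kb of Srsf2 with at least 300 UMIs, 4 stood above 0 and 11 below, around a median log2 ratio of -0.14, and 2 were past 1.3-fold lower (Mettl23 and Sphk1). Around Hnrnpa0, the median of 8 such genes was -0.0023, and 1 was past 1.3-fold higher (Spock1, log2 ratio 1.17). Hnrnpk, another of the 50 genes, lies 263 kb from Hnrnpa0 and had a log2 ratio of 0.08 (0.04 to 0.11). Neither Srsf2 nor Hnrnpa0 shared a run of 45 bases or more in the last 500 bases of its transcripts with any other gene of the annotation.

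**Figure D3:**
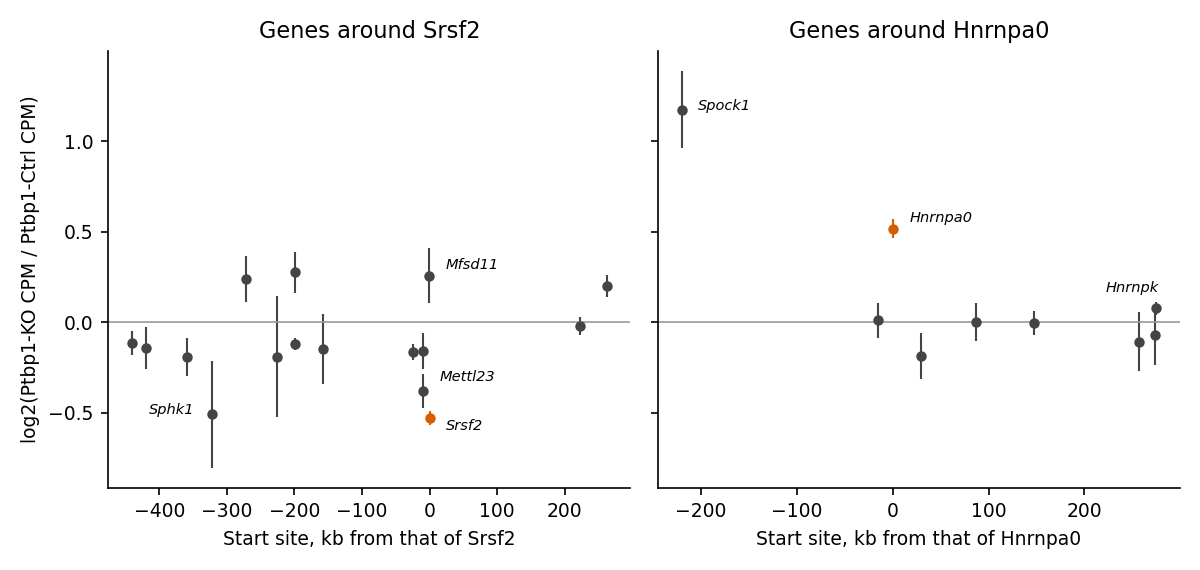
Log2 ratio of CPM in Ptbp1-KO to Ptbp1-Ctrl over rods, cones, BC, AC and MG together for genes within 500 kb of Srsf2 (left) and Hnrnpa0 (right), placed by the distance of their start sites in kb; bars are 95% counting intervals. Srsf2, at -0.53, and Hnrnpa0, at 0.52, stand away from most of their neighbours, and Spock1 stands at 1.17. The mix of cell types differed between the libraries and was not adjusted for.

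Among the other hnRNPs, levels were close between genotypes. All 18 Hnrnp genes passed the minimum in all 5 types, and Hnrnpa0 was the only one called in any of them. Their summed level without Hnrnpa0 gave log2 ratios between -0.06 (MG) and -0.0031 (BC). Hnrnpa1, a shuttling repressor of exons, was at 174 and 168 CPM in rods and 129 and 112 CPM in MG. Hnrnpa2b1, which also sorts RNA, was at 338 and 335 CPM in rods and 382 and 344 CPM in MG. Hnrnpu, a nuclear matrix protein, was at 517 CPM in rods of both libraries. Hnrnpk, which binds C-rich RNA and DNA, was higher in each type by a log2 ratio of 0.01 to 0.13, but in rods its ratio was -0.03 with TMM scaling and -0.05 with DESeq2 size factors. Among the lowest ratios by type were those of Hnrnpf in AC (126 and 101 CPM, -0.31, -0.54 to -0.07), Hnrnpul1 in cones (85.4 and 65.9 CPM, -0.37, -0.76 to 0.01) and Hnrnph3 in MG (146 and 122 CPM, -0.26, -0.41 to -0.11). Hnrnph1, a G-tract binder like Hnrnpf, was lower in all 5 types by a log2 ratio of -0.07 to -0.25. Hnrnpa3 was at 294 and 357 CPM in AC (0.28, 0.14 to 0.42).

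Of 10 Srsf genes that passed, Srsf2 included, 7 were lower in Ptbp1-KO in rods (48.9% of all genes) and 9 in cones (54.5%). In BC 8 were lower (51.5%), in MG 8 (54.9%) and in AC 5 (52.6%). With DESeq2 size factors, 77.1% of all genes in rods were below 0. The summed level of the Srsf genes without Srsf2 had log2 ratios of -0.03 (rods), -0.14 (cones), -0.09 (BC), -0.06 (AC) and -0.11 (MG). Srsf3, the smallest SR protein, was lower in all 5 types, from 336 and 316 CPM in rods to 332 and 275 CPM in AC (-0.28, -0.42 to -0.13). Srsf6, Srsf10 and Srsf11 were also lower in all 5, none past 1.3-fold. Srsf1, the founding SR protein, stood at 201 and 215 CPM in rods but at 281 and 233 CPM in cones (-0.27, -0.48 to -0.07). With DESeq2 size factors its ratio in rods was -0.015. Srsf5 was at 281 and 283 CPM in rods and 342 and 353 CPM in MG. Srsf9 was at 59.4 and 48.4 CPM in rods (-0.30, -0.44 to -0.15) and at 60.8 and 67.7 CPM in AC. Srsf4 was at 67.4 and 76.9 CPM in MG (0.19, -0.01 to 0.40). Srsf12 had almost no UMIs in rods, at 0.46 and 0.48 CPM, and reached 13.8 and 18.7 CPM in AC.

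Of the 9 Sf3 genes, 5 passed in rods and BC, 6 in cones and 4 in AC and MG. Sf3b1, the subunit that holds the branch point adenosine, was at 180 and 186 CPM in rods and 154 and 157 CPM in MG. Sf3a1, a subunit of SF3A, was at 47.4 and 50.1 CPM in rods. Sf3b6, a small subunit at the branch point, was lower in all 5 types, from 126 and 105 CPM in rods (-0.26, -0.36 to -0.16) to 167 and 160 CPM in AC. Sf3b3 was called higher in cones, at 48.7 and 64.5 CPM (0.41, -0.04 to 0.85), with an interval that reached 0, and its ratio turned to -0.09 in thinned cones. Among genes under the minimum, Sf3a2 was at 17.1 and 27.3 CPM in MG (0.68, 0.30 to 1.06).

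The Sm protein genes went in both directions. Snrpf, coding for SmF, was higher in Ptbp1-KO in all 5 types, by a log2 ratio of 0.17 (0.07 to 0.27) in rods to 0.36 (0.13 to 0.60) in AC. Snrpg, coding for SmG, was higher by 0.14 (0.05 to 0.24) in rods to 0.30 (0.17 to 0.44) in MG. With DESeq2 size factors these ratios in rods were 0.06 for Snrpf and 0.03 for Snrpg. Snrpd2 was at 139 and 113 CPM in rods (-0.29, -0.39 to -0.19), and Snrpd1 at 148 and 121 CPM in BC (-0.29, -0.40 to -0.17). Snrpb was called lower in cones, at 264 and 194 CPM (-0.45, -0.67 to -0.23), and its log2 ratio was between -0.15 and -0.07 in the other 4 types. Snrpa, the U1 protein A, was below the minimum, at 28.8 and 30.4 CPM in rods and 56.7 and 42.8 CPM in AC (-0.41, -0.76 to -0.05).

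Cell types differed more than genotypes did. A gene was counted as different from rods where its CPM was at least 1.5-fold above or below that of rods in both libraries. In cones 3 of 42 genes were above rods (12.9% of all genes compared) and 1 was below (13.4%). In BC 4 of 42 were above (20.6%) and 2 below (21.6%), and in AC 2 of 42 were above (24.5%) and 2 below (21.8%). In MG 3 of 40 were above (25.5%) and 3 below (30.0%). In RGC 1 of 42 was above (18.9%) and 4 were below (23.6%). In each type, the share of splicing factor genes past 1.5-fold was under that of all genes. The members' medians lay between -0.11 (MG, Ptbp1-KO) and 0.09 (cones, Ptbp1-KO) on the log2 scale, apart from RGC at -0.23 and -0.15.

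**Figure D4:**
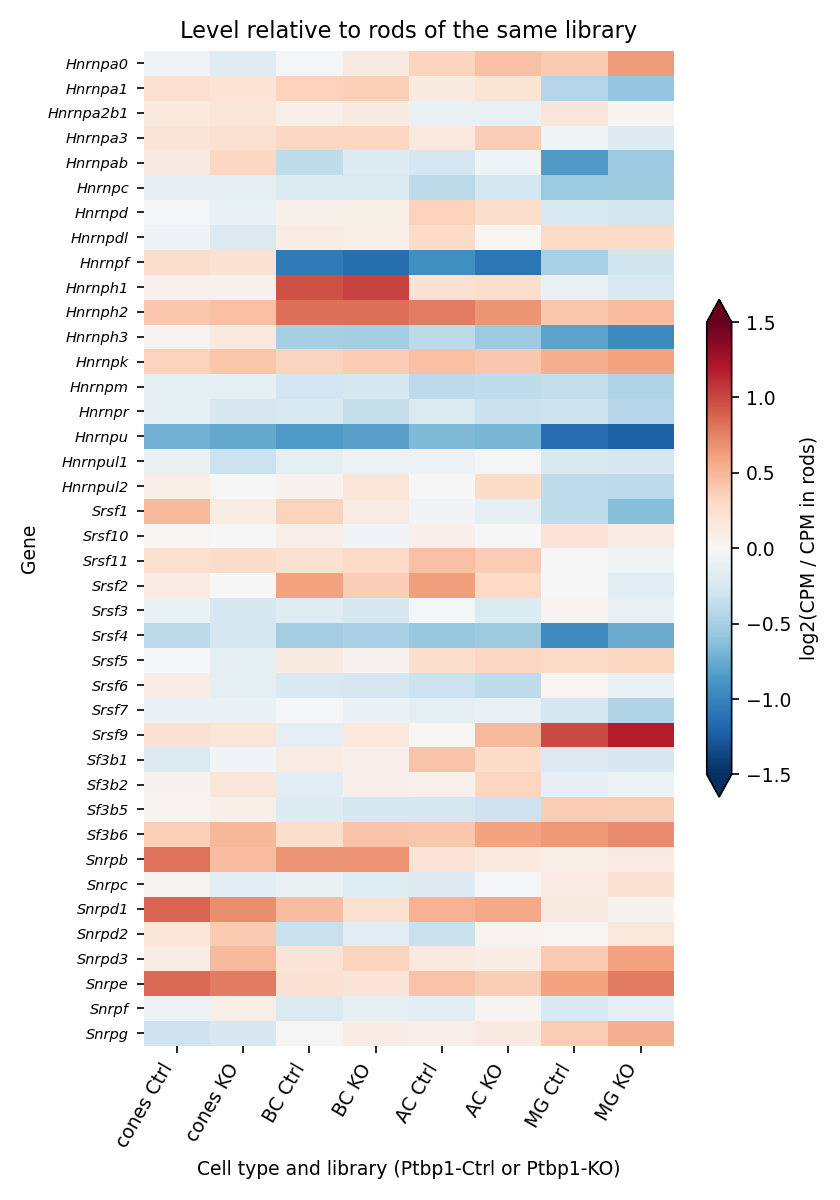
Colours give the log2 ratio of CPM in each cell type to CPM in rods of the same library (Ptbp1-Ctrl or Ptbp1-KO) for the 40 splicing factor genes that passed the minimum in cones, BC, AC and MG; colours saturate at 1.5. The paired columns of a type look alike: Hnrnpu is below rods throughout, Hnrnph1 stands out in BC, Hnrnpf is low in BC and AC, and Srsf9 stands out in MG.

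Hnrnpu was higher in rods than in cones, BC, AC and MG. Its level of 517 CPM in rods compared with 315 and 304 CPM in cones, 286 and 293 CPM in BC, 326 and 322 CPM in AC and 235 and 222 CPM in MG. Rods thus exceeded MG 2.20-fold and 2.33-fold in the 2 libraries, and AC 1.59-fold and 1.61-fold. Hnrnpf separated photoreceptors from inner neurons, with 237 and 215 CPM in rods, 284 and 250 CPM in cones, 114 and 98.3 CPM in BC and 126 and 101 CPM in AC. It lay in between in MG, at 169 and 175 CPM. Its relative Hnrnph1 was highest in BC, at 360 and 342 CPM against 185 and 170 CPM in rods, 1.94-fold and 2.02-fold. Its level varied among the BC clusters, from 221 to 520 CPM in Ptbp1-Ctrl and from 169 to 493 CPM in Ptbp1-KO, while the rod clusters reached 209 and 187 CPM. The X-linked Hnrnph2 was also above rods in BC (1.77-fold in both libraries) and in AC (1.71-fold and 1.59-fold). Snrpb was above rods in BC 1.59-fold and 1.60-fold. Of the 5 types, Hnrnph3 was lowest in MG, at 146 and 122 CPM against 255 and 236 CPM in rods.

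Müller glia differed from rods in several genes, not all of them particular to MG. Srsf9 was at 118 and 109 CPM in MG against 59.4 and 48.4 CPM in rods, 1.99-fold and 2.26-fold. Sf3b6 was at 199 and 172 CPM (1.58-fold and 1.64-fold over rods) and Snrpe, coding for SmE, at 139 and 147 CPM (1.52-fold and 1.72-fold). Srsf4 was below rods, at 67.4 and 76.9 CPM against 128 CPM in rods of both libraries. It was also below rods in cones (97.4 and 107 CPM), BC (89.3 and 91.5 CPM) and AC (86.4 and 88.9 CPM). The endothelial markers were present in all 3 MG clusters, at 841 to 1950 CPM, beside MG markers at 12409 to 24130 CPM, and their part in these differences was not tested. In cones, Snrpe (164 and 147 CPM) and Snrpd1, coding for SmD1 (197 and 168 CPM), were above rods, at 91.0 and 85.7 CPM for Snrpe and 107 and 104 CPM for Snrpd1. Snrpg was lower in cones than in rods, by a log2 ratio of -0.31 in Ptbp1-Ctrl and -0.24 in Ptbp1-KO.

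Of the genes past the minimum, Snrpn differed most from rods. It codes for SmN, a close relative of the SmB proteins coded by Snrpb, and is an imprinted gene, expressed from the paternal chromosome, that is known for its expression in brain. Its level was 22.0 CPM (19.5 to 24.7) and 23.7 CPM (21.2 to 26.3) in rods, and 90 and 117 CPM in cones. It was 359 CPM (348 to 371) and 340 CPM (328 to 351) in BC, and 322 and 320 CPM in AC. In MG it was 52.5 and 44.2 CPM. The few RGC were at 422 CPM (340 to 519) and 223 CPM (160 to 303), and the few HC at 668 and 560 CPM. BC thus stood 16.3-fold and 14.4-fold and AC 14.6-fold and 13.5-fold above rods. MG were not uniform, a point examined after their values were seen. The largest MG cluster was at 37.9 and 32.7 CPM, while an MG cluster of 143 cells was at 216 and 185 CPM, within the range of the BC clusters, the lowest of which was at 213 and 171 CPM. That small cluster held 113 of 310 and 69 of 225 of the Snrpn UMIs of the MG clusters. Its MG markers were at 14004 and 13331 CPM, against 23515 and 24130 CPM in the largest MG cluster. Whether droplets holding several cells had a part in its Snrpn level was not tested. The counting intervals of BC and AC overlapped in each library, with BC above AC in both, and the difference between them was not tested. With free RNA subtracted (estimated from rod genes), Snrpn was at 3.63 and 0.84 CPM in MG and 23.4 and 67.6 CPM in cones, so that the order of cones, MG and rods depended on it.

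The coding starts of Snrpb and Snrpn are shown because the genes are so alike that their UMIs need to be told apart. The first 120 coding bases are from the GENCODE M21 transcripts, on the minus strands of chromosome 2 (Snrpb, chr2:130171414-130179403) and chromosome 7 (Snrpn, chr7:59982495-60140219), and capitals mark the bases that differ between them.
Snrpb: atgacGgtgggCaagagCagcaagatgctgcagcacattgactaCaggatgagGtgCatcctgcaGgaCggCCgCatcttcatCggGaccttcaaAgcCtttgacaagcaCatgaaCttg
Snrpn: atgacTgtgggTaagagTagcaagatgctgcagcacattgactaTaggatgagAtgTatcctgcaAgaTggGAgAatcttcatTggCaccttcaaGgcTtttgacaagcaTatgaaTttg
In this stretch 17 of 120 bases differed. Over the aligned coding sequence, 80.5% of 693 bases were identical and the longest shared run was 32 bases. After the stop codon, where 3′ libraries are read, the longest shared run was 10 bases. Snrpn shared a run of 52 bases near its 3′ end with Gm38393, a predicted gene of the table, and it overlaps both Gm38393 and Snurf on the same strand, so reads of these genes may not have been told apart.

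The share of Snrpn among the UMIs of Snrpn and Snrpb together was 12.8% (11.4 to 14.2) and 14.4% (13.1 to 15.9) in rods, 24.7% (22.3 to 27.1) and 22.4% (19.9 to 25.1) in MG, and 25.4% (22.1 to 29.1) and 37.7% (33.2 to 42.4) in cones. In BC it was 60.1% (58.8 to 61.4) and 60.2% (58.9 to 61.5), and in AC 65.2% (62.1 to 68.2) and 67.4% (65.2 to 69.5). The share therefore differed little between genotypes in rods, BC, AC and MG, while cones of Ptbp1-KO were above those of Ptbp1-Ctrl. In RGC it was 76.3% (67.6 to 83.6) and 63.1% (50.2 to 74.7). The rod markers in these cells were at 18296 and 22482 CPM, and their part in that difference was not tested. RNA released from other cells was estimated from 5 rod genes, which were at 14.0% to 26.2% of their rod level in cones, BC, AC and MG. Relative to the whole library, these genes were at 49.8% and 51.9% of their level in cones and at 27.8% to 34.7% in BC, AC and MG. With this second share of the library's profile subtracted, Snrpn made up 2.44% and 0.58% in MG and 7.02% and 25.6% in cones. It made up 63.1% and 62.6% in BC and 71.1% and 73.5% in AC. After subtraction, the shares in MG and in cones of Ptbp1-Ctrl were thus below those of rods, from which nothing was subtracted, and those in BC and AC were slightly higher than before.

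**Figure D5:**
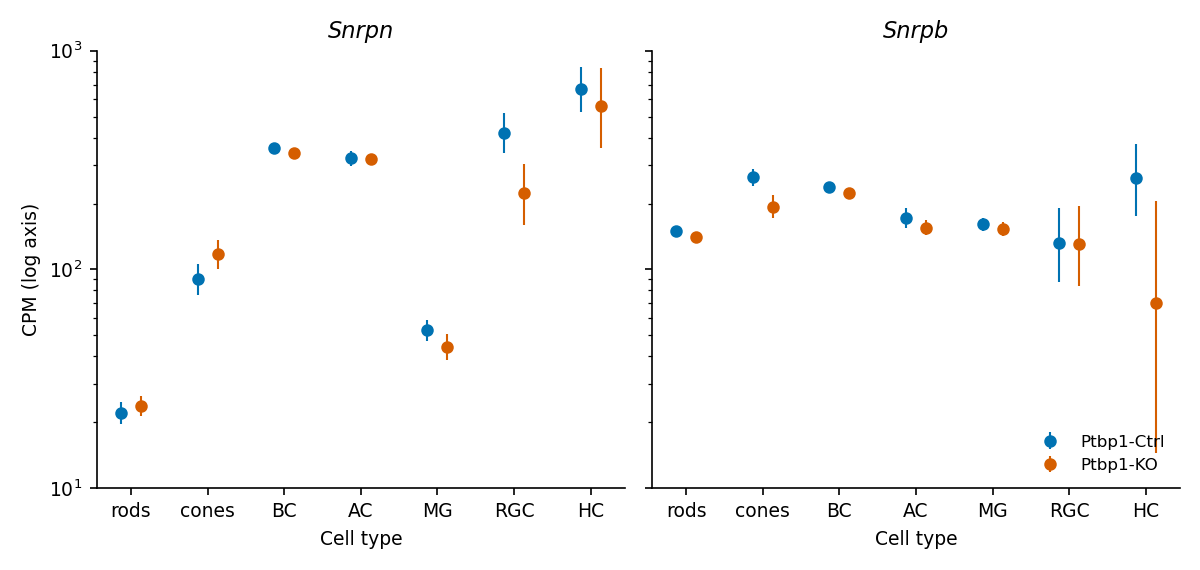
CPM of Snrpn (left) and Snrpb (right) in each cell type on a log axis, with 1 point per library and bars for the 95% counting interval. Snrpn spans from 22.0 CPM in rods to 668 CPM in HC of Ptbp1-Ctrl, while Snrpb stays between 131 and 264 CPM outside HC.

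The spliceosome has many other proteins, and 3 further lists of them were examined in the same way. Of 66 genes of other spliceosome proteins, 36 passed the minimum in rods, with a median log2 ratio of 0.02 and 1 gene called higher (2.83% of all genes), Prpf4b, a kinase of the U4/U6.U5 tri-snRNP, at 223 and 297 CPM (0.41, 0.34 to 0.48). In MG 36 passed, with a median of -0.01 and no call (4.35% of all genes higher and 4.71% lower). In BC 37 passed, again with no call (1.70% and 1.48%). In cones 2 were called higher (U2af2 and Snw1, 5.43% of all genes) and 1 lower (U2af1, 5.45%), and in AC 1 higher (Smndc1, 3.65%), genes named here after their values were seen. Next to Prpf4b in rods came Snrnp70, the U1 70K protein (391 and 474 CPM), and the lowest were Lsm4 (174 and 145 CPM) and Puf60 (71.3 and 60 CPM). In MG the highest were Prpf38b (57.7 and 67.6 CPM) and Lsm5 (50.1 and 56.8 CPM) and the lowest Bcas2 (135 and 113 CPM) and Phf5a (59.4 and 49.9 CPM).

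Of 24 genes of SR-related proteins and of kinases that phosphorylate SR proteins, 19 passed in rods, 1 was called higher (2.83% of all genes) and 1 lower (1.97%). Son, a large protein of nuclear speckles, was at 454 and 633 CPM (0.48, 0.43 to 0.53), and Srpk2, an SR protein kinase, at 285 and 216 CPM (-0.40, -0.47 to -0.33). Both kept their direction in the other 4 types without reaching 1.3-fold there, Son with log2 ratios of 0.20 to 0.33 and Srpk2 with -0.28 to -0.20. In MG 19 passed, 8 higher (45.1% of all genes) and 11 lower (54.9%). None was called there, against 4.35% of all genes higher and 4.71% lower. Clk4, another SR protein kinase, was highest (70.3 and 87.1 CPM) and Sap18 lowest (82.8 and 65.9 CPM). Of 16 genes of the SMN complex and other factors that assemble U snRNPs, 3 passed in rods and 2 in MG. None was called in any of the 5 types, against 1.48% to 5.45% of all genes by type and direction. No gene of these 3 lists was called in more than 1 of the 5 types. Calls in these lists were made with scaling by total UMIs only. In rods, the median of all genes moved from 0.00 to -0.09 with TMM and to -0.11 with DESeq2 size factors.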

How the data were processed

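Retinas of 30-day-old mice were dissociated with papain and profiled with a 10x 3′ kit, 1 library per genotype. The authors aligned reads to mm10 with Cell Ranger 7.0.1 and filtered and clustered cells with Seurat 4. The annotation, the treatment of introns and the strand setting are not given in the sources used here. The values used are the deposited counts, whole UMIs per gene and cell. The deposited table of cells also gave the total count per cell, the percent of mitochondrial counts, the clusters and the cell types by the authors, and 2 further columns of it were not used. Cells summed to their deposited totals in all 30943 cases.

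UMIs were summed by library and cell type with Python 3.11.15 and scaled by total UMIs. Exact Poisson intervals were used for CPM, conditional binomial intervals for ratios and Clopper-Pearson intervals for shares. The intervals cover counting error only. No pseudocount was used; over all genes a count of 0 was set to 3. Calls are folds, not tests. The calculation was tested on simulated data. Doublets were not removed; scrublet in scanpy 1.11.5 scored each library, and the top 5% of cells were left out as an alternative. Other alternatives were TMM (edgeR 4.0.16) and DESeq2 1.42.0 scaling of the summed counts, thinning to 1000 UMIs, leaving out the deepest 5% of cells, subtraction of free RNA, other minima (20 or 200 CPM, or only 20 UMIs) and stricter folds (1.5 and 2).

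Genes were named by rule: in each type the 3 highest and 3 lowest ratios between genotypes and to rods, fixed examples of each family, and in the other lists the 2 highest and 2 lowest in rods and MG. Other genes were named after their values were seen, as were those followed by cluster, neighbour or share. The members and lists were chosen with earlier results of these data known.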

Additional observations from a re-analysis of the deposited data

How the results depend on the processing

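Of 340 alternative values of medians, counts, summed levels and shares, 267 stayed within the limits set for them, and of 816 alternative values of single genes 689 did, 126 moved and 1 reversed. Srsf2 was lower in Ptbp1-KO in all 5 types under all 7 settings, and Hnrnpa0 higher in rods, BC, AC and MG. The reversed value was Sf3b3 in cones, at -0.091 after thinning. The cause of these shifts was not tested. No paired analysis was possible because each genotype had 1 library. The RGC share of Snrpn in Ptbp1-KO could not be computed after subtraction of free RNA. Of the 5 types, cones had the fewest UMIs, 1745145 and 1425527, and thus the widest counting intervals at a given CPM.

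The log2 ratio of the summed level between genotypes was -0.13 (TMM), -0.15 (DESeq2), -0.056 (thinned) and -0.050 (without the deepest cells) in rods, where the DESeq2 median was -0.16. It was -0.11 (DESeq2) in cones, -0.081 (TMM), -0.060 (DESeq2) and -0.077 (thinned) in BC, and -0.078 (DESeq2) and -0.12 (thinned) in MG. The number of genes past 1.3-fold after thinning was 8 in cones (26.7% of all genes), 6 in AC (17.2%) and 4 in MG (15.7%). After subtraction of free RNA it was 12 in cones (30.3%) and 5 in AC (14.6%). With a minimum of 200 CPM it was 1 in rods, 2 in cones and 1 in BC. In AC it was 4 with a minimum of 20 CPM and 5 with none. Past 1.5-fold it was 0 in rods and cones and 1 in BC, AC and MG. The share of all genes was not computed at these other minima or at 1.5-fold, so these counts have no background beside them.

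Over rods, the median was -0.17 in cones of Ptbp1-KO, -0.13 in MG of Ptbp1-Ctrl and -1.19 in RGC of Ptbp1-Ctrl after subtraction. It was -0.20 in AC of Ptbp1-Ctrl (TMM), -0.14 in AC of Ptbp1-KO (200 CPM), and 0.16 and 0.090 in MG (DESeq2). The counts of genes that follow have no share of all genes beside them, because it was not computed for these settings. Genes above rods numbered 0 in cones, AC and MG and 1 in BC at 200 CPM, 1 in cones, BC and AC and 0 in MG past 2-fold, 1 in AC by TMM or thinning, and 5 and 6 in MG with a minimum of 20 CPM or none. Genes below rods numbered 0 in cones and AC and 1 in BC and MG past 2-fold, 1 in BC, AC and MG at 200 CPM, 4 in AC by TMM, 1 in AC and 6 in MG after thinning, and 2 in cones and 8 in MG after subtraction.

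After subtraction, the share of Snrpn was 7.02% and 25.6% in cones, 63.1% and 62.6% in BC, 71.1% and 73.5% in AC, 2.44% and 0.58% in MG, and 100% in RGC of Ptbp1-Ctrl. After thinning it was 31.9% in cones and 26.6% in MG of Ptbp1-KO, and 60% in RGC of Ptbp1-Ctrl. In MG it was 19.6% and 19.0% with the likeliest doublets left out, and without the deepest cells it was 21.5% in MG and 62.3% in RGC of Ptbp1-Ctrl.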
